A study of Mus musculus with 2 samples.

Results

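The cells described here are *Foxp3* regulatory T cells in the kidneys of lupus-prone mice, chosen by their UMIs. They are barcodes with at least 1 UMI (unique molecular identifier, a counted transcript) of *Foxp3* and at least 1 summed over *Cd3d*, *Cd3e* and *Cd3g*. They also had no UMI of *Cd8a* or *Cd8b1* and UMIs of fewer than 2 of the 4 cycling genes *Mki67*, *Top2a*, *Birc5* and *Cdk1*. A barcode was kept as a cell when it had 200 genes or more and mitochondrial genes took no more than 20% of its UMIs. The rule found 41 regulatory T cells among 11429 kept cells of the young library and 116 among 10232 of the old library. Their comparison group, called CD4 conventional T cells below, is the 123 young and 1130 old cells with CD3 and *Cd4* UMIs, no *Foxp3*, *Cd8a* or *Cd8b1* UMI and the same limit on cycling genes.

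Regulatory T cells are CD4 T cells that restrain other immune cells, and the transcription factor encoded by *Foxp3* sets their identity. They keep high levels of the interleukin-2 receptor α chain, of CTLA-4 and of several tumor necrosis factor receptors, and they can act through cytokines, through removal of costimulation and, in tissues, through growth factors such as amphiregulin. In lupus nephritis, the kidney inflammation of systemic lupus, T cells enter the kidney, and the balance between regulatory and other CD4 T cells is a long-standing subject of study.

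The study asked what innate lymphoid cells do in lupus nephritis. Both libraries come from kidneys of MRL-lpr mice, a lupus-prone strain with the *lpr* mutation of *Fas* on the MRL background, labelled only as young or old. Kidneys were pooled within each age, and cells were enriched by density gradient and by a magnetic kit for innate lymphoid cells, then sorted as live, before 3′ droplet sequencing. Shares of cells below are therefore shares of what this enrichment left, not frequencies in the kidney.

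There is 1 library per age, no non-lupus control, and no estimate of variation between mice. No test was made, and age cannot be told apart from pool, enrichment and library. Values in parentheses are 95% intervals that cover counting error only. Levels are in CPM, a gene's UMIs added up within a group and scaled to a fixed total for every group, and comparisons are log2 ratios of 2 such levels. A gene counted as tested when both groups together had at least 50 UMIs of it, and as higher or lower when its ratio passed 2-fold. A sum of 0 was set to 3 counts for a bound.

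The young library held 15076 barcodes with 156787812 UMIs, and the old library 12622 barcodes with 126334256 UMIs. Both numbers exceed the number of live cells that the study's methods say were sorted. Median depth was 7881 UMIs per kept cell in the young library and 6933 in the old. The libraries shared 41 barcode sequences, 26 of them among kept cells, and 1 old regulatory T cell carried a sequence that was also kept in the young library. The methods describe female mice, yet 20 young and 45 old regulatory T cells had a Y-linked and no *Xist* UMI, against 13 and 41 with *Xist* alone, 2 and 14 with both and 6 and 16 with neither. Cells of both sexes were thus present in each library.

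Regulatory T cells had a median of 5702 UMIs and 2159 genes in the young library, and 5149 UMIs and 1924.5 genes in the old. Conventional cells were of like depth, with medians of 5204 and 5271 UMIs. All regulatory T cells together summed to 411720 UMIs in the young library and 753564 in the old, so the young sums are the less precise ones. Thinning of each cell to 1000 UMIs, used below for shares of cells, left out 0 young and 2 old regulatory T cells and 0 young and 11 old conventional cells.

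*Foxp3* (ENSMUSG00000039521, chrX:7573644-7595245; coordinates are GRCm38 with the GENCODE M21 annotation) chose the cells, so its counts are only a description. Of the young regulatory T cells, 20 had 1 *Foxp3* UMI, 6 had 2 and 15 had 3 or more, up to 6. Old cells with these numbers were 44, 23 and 49, up to 11 UMIs. Many members thus sit at the edge of the rule, and just outside it lie *Foxp3*-positive cells that failed another condition: 9 young and 17 old with a *Cd8a* or *Cd8b1* UMI, 3 and 7 cycling, and 3 and 5 without a CD3 UMI. Few *Foxp3* UMIs lay in tubule cells: the proximal tubule (PT) reference, cells with no *Ptprc* UMI and at least 4 of 6 PT genes, held 4 in 6688 young cells and 2 in 3552 old cells, at median depths of 13793.5 and 15010.5 UMIs.

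The label was checked against the 4 other markers named for these cells, *Ikzf2*, *Ctla4*, *Il2ra* and *Tnfrsf4*, which the rule did not use. At least 2 of the 4 had UMIs in 38 of 41 young and 111 of 116 old regulatory T cells, and of all 4 in 13 and 34. Only 1 young and 0 old cells had none of them. Among conventional cells, at least 2 were found in 15.4% in the young and 42.6% in the old library, and all 4 in 0 and 17 cells. In cells with a single *Foxp3* UMI, *Ikzf2* was found in 90% in the young and 93.2% in the old library. Other markers were less frequent in such old cells than in old cells with 3 or more: *Il2ra* 27.3% against 51.0%, *Tnfrsf4* 75% against 91.8%, and all 4 18.2% against 42.9%, at median depths of 3980 and 5630 UMIs. In young cells *Il2ra* was also less frequent, 45% against 66.7%, but *Tnfrsf4* was not, 65% against 60%. All 4 were in 30% and 33.3% of these young cells, at median depths of 3203 and 9044 UMIs. The data therefore bear the label, and the conventional group, above all in the old library, holds some cells with the same markers in which no *Foxp3* UMI was counted.

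*Cd4* itself was found in 19 young and 69 old regulatory T cells. Those without a *Cd4* UMI had at least 2 of the 4 markers in 20 of 22 young and 45 of 47 old cells. Double-negative T cells, with CD3 but no *Cd4*, *Cd8a*, *Cd8b1* or *Foxp3* UMI, had at least 2 of the markers in 178 of 794 young and 238 of 2295 old cells, *Ikzf2* in 37.8% and 13.5%, and all 4 in 2 of 794 young and 9 of 2295 old cells.

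Regulatory T cells made up 25% (18.6 to 32.3) of regulatory plus conventional cells in the young library and 9.31% (7.75 to 11.1) in the old. The old library thus held 9.74 conventional cells per regulatory T cell, against 3 in the young. Of all CD3 cells, young regulatory T cells were 3.37% (2.43 to 4.55) and old ones 2.32% (1.92 to 2.78), with intervals that overlap. Of all kept cells they were 0.359% in the young and 1.13% in the old library, in which CD3 cells were 10.6% and 48.8% of kept cells. Of CD3 cells, the young and old shares were 1.56% and 1.38% when *Cd4* was required. They were 3.2% and 2.65% among cells with Y-linked but no *Xist* UMIs, both pairs with intervals that overlap. Among cells with *Xist* alone they were 5.65% and 2.08%, with intervals that do not overlap. The old library also held more CD4-type cells, and the part of this in the lower shares was not tested. When *Cd4* was required of both groups, the shares of regulatory plus conventional cells were 13.4% (8.25 to 20.1) and 5.75% (4.50 to 7.23). Where cells had Y-linked but no *Xist* UMIs they were 23.8% (15.2 to 34.3) and 10.1% (7.46 to 13.3), and among cells with *Xist* alone 41.9% (24.5 to 60.9), from 31 cells, and 9.34% (6.79 to 12.5).

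**Figure D1:**
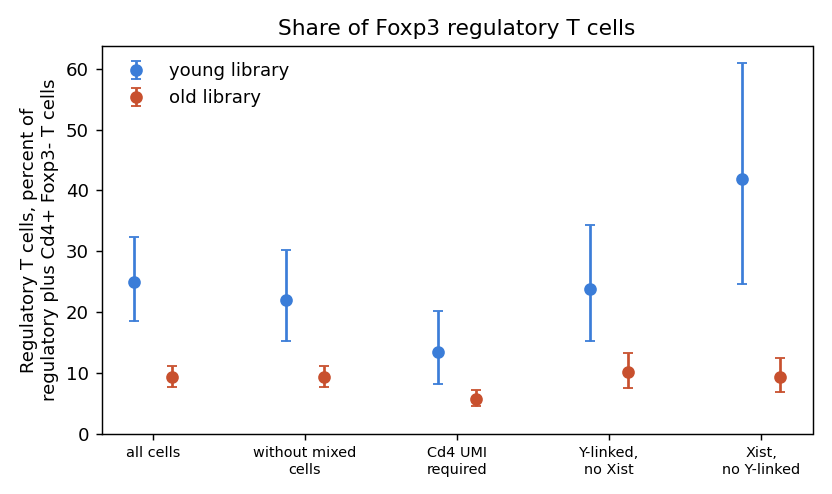
Share of Foxp3 regulatory T cells among regulatory plus CD4 conventional T cells, in percent, for each library under 5 choices of cells. Points are shares and bars are exact binomial 95% intervals; the young points lie above the old ones under every choice shown.

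RNA of other cells lay on some of these barcodes. Scrublet called 4 young and 2 old regulatory T cells doublets, and they were kept. A wider rule, chosen after seeing the data, called a cell mixed when over 1% of its UMIs came from a set of 2884 tubule genes or when it had at least 5 UMIs of B, myeloid, neutrophil, plasmacytoid dendritic cell, basophil or urothelial genes, or at least 20 of hemoglobin genes. It marked 13 of 41 young regulatory T cells, with 64.2% of their UMIs, and 10 of 116 old ones, with 20.1%. By kind, 10 young and 5 old cells passed the tubule limit and 2 and 3 the myeloid one. Sums over all young regulatory T cells are therefore mostly sums over mixed barcodes, and the counts and main ratios between libraries below are given with and without them. Without mixed cells, regulatory T cells made up 22.0% (15.2 to 30.3) of young and 9.26% (7.64 to 11.1) of old regulatory plus conventional cells.

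The set of 2884 tubule genes took 1.39% of the UMIs of young and 0.495% of those of old regulatory T cells, beside 1.33% and 0.643% in conventional cells and 3.24% and 3.35% in the PT reference. It holds none of the PT markers that follow, which were less than 4-fold above CD8 T cells in the young library, so these shares are not the whole tubule share. All 8 PT markers had UMIs in regulatory T cells of both libraries, at a summed 40132 CPM in the young and 2593 in the old, led by *Kap* at 35672 and 1644 CPM. Without mixed cells the sums were 3169.7 and 945 CPM. RNA of PT markers was thus more abundant on young barcodes even without mixed cells. Its source, free RNA or tubule cells on the same barcode, was not tested, nor was its part in the differences between libraries.

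Other classes left traces that rest on few barcodes. Erythroid markers, 5 of 5 with UMIs in each library, summed to 35281 young and 4250.5 old CPM, led by *Hbb-bs* at 19018 and 2192, and without mixed cells to 20.4 and 4.98. Macrophage and monocyte markers, 4 of 9 present in the young and all in the old library, summed to 131 and 1242 CPM, led by *Ccr2*, which T cells also express, at 77.7 and by *Lyz2* at 933, and *C1qa*, *C1qb*, *C1qc*, *Adgre1* and *Ly6c2* were at 0 in the young. Most of the old *Lyz2* lay on a single barcode, 692 of 703 UMIs. Plasmacytoid and dendritic cell markers, 4 of 6 present in each, summed to 94.7 and 391 CPM, most of it *Bst2* (82.6 and 304), which interferon also induces in T cells. *Xcr1* was at 0 in both libraries, *Siglech* in the young and *Clec9a* in the old.

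The remaining lists were low. B cell markers, 1 of 7 present in the young and all in the old library, summed to 7.29 (*Ebf1*, with the other 6 at 0) and 104 CPM (*Cd79a* at 31.8). Neutrophil markers, 1 and 5 of 5, summed to 2.43 and 15.9 CPM (*Cxcr2* and *Csf3r* the most abundant, at 2.43 and 3.98), with *Csf3r*, *S100a8*, *S100a9* and *Retnlg* at 0 in the young, against 306 and 699 in conventional cells. Plasma cell markers, 2 and 5 of 5, summed to 70.4 and 155 CPM, mostly *Xbp1* (68.0 and 104), which is not restricted to them, and *Jchain*, *Sdc1* and *Derl3* were at 0 in the young. Endothelial markers, 5 and 2 of 5, summed to 151 and 37.2 CPM (*Emcn* at 53.4 and *Pecam1* at 35.8), with *Cdh5*, *Emcn* and *Kdr* at 0 in the old. γδ T cell markers, 2 of 4 found in the files' gene table in each library, summed to 9.72 and 10.6 CPM, led by *Trdc* (4.86 and 9.29), with *Trdv4* and *Il17a* at 0 in both. The part of any of these classes in the results was not tested.

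Against conventional cells of the same library, 117 of 4076 tested genes were higher and 121 lower in young regulatory T cells, which is 2.87% and 2.97%. In the old library 327 of 9522 were higher and 694 lower, 3.43% and 7.29%. Of 4061 genes tested in both libraries, 25 were higher in both, 28 lower in both and 20 on opposite sides. The median log2 ratio of all tested genes was 0.02 in the young and 0.01 in the old library, so the scale of the groups within a library was even.

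The core regulatory T cell genes stood out from that background. Of the 20 listed, which include the 4 markers above and were chosen with earlier results known, 8 of 12 tested were higher and 0 lower in the young library, with a median log2 ratio of 1.48. In the old library 11 of 17 were higher and 0 lower, with a median of 1.51. Without mixed cells it was 8 of 10 and 12 of 17 higher and none lower, where 4.51% and 3.55% of all tested genes were higher and 4.25% and 5.4% lower.

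*Ikzf2* (ENSMUSG00000025997, chr1:69531214-69687245) encodes Helios, a transcription factor that stabilizes the regulatory program. It was at 631 (557 to 713) CPM in young regulatory and 54.4 (40.7 to 71.2) in young conventional cells, and at 1314 (1233 to 1398) and 89.7 (83.1 to 96.7) in old ones. Log2 ratios were 3.54 (3.11 to 3.99) and 3.87 (3.73 to 4.01). *Il2ra* (ENSMUSG00000026770, chr2:11642807-11693193), the high-affinity chain of the interleukin-2 receptor, was at 114 against 7.18 CPM in the young and 174 against 15.7 in the old library, with log2 ratios of 3.99 (2.84 to 5.38) and 3.47. Both genes separated the groups in each library by more than their counting error.

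*Ctla4* (ENSMUSG00000026011, chr1:60887000-60915832), which withdraws CD80 and CD86 from antigen-presenting cells, was at 466 against 68.8 CPM in the young and 839 against 300.3 in the old library. Young and old log2 ratios were 2.76 (2.35 to 3.19) and 1.48 (1.35 to 1.61), and old conventional cells carried more of it than young ones. The tumor necrosis factor receptors OX40 (*Tnfrsf4*), GITR (*Tnfrsf18*), 4-1BB (*Tnfrsf9*) and TNFR2 (*Tnfrsf1b*), which costimulate T cells, were all higher. Their log2 ratios were 1.82, 1.43, 1.53 and 1.10 in the young and 1.90, 1.51, 2.66 and 1.54 in the old library. *Izumo1r*, the folate receptor 4 gene, was at 216 against 65.7 and at 502 against 81.7 CPM.

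Shares of cells put the groups in the same order as the sums. *Ikzf2* UMIs were in 87.8% (73.8 to 95.9) of young and 95.7% (90.2 to 98.6) of old regulatory T cells, and in 14.6% and 24.9% of conventional cells. Thinned to 1000 UMIs, the shares were 51.2% and 72.8% against 3.25% and 9.65%. In the PT reference, which is deeper, *Ikzf2* was in 7.45% of young and 8.05% of old cells unthinned and in 0.669% and 0.458% thinned. *Il2ra* was in 53.7% and 37.9% of regulatory T cells, 26.8% and 14.0% thinned, against 1.03% and 0.169% of PT reference cells. The share of *Il2ra*-positive cells was thus lower in the old library. Its CPM was above the young one over all cells and below it without mixed cells, as given below.

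*Itgae* (ENSMUSG00000005947, chr11:73090583-73147446) encodes CD103, the integrin α chain that binds E-cadherin on epithelium. It was at 191 (161 to 225) CPM in old regulatory and 6.03 (4.42 to 8.05) in old conventional cells, the highest-ranked log2 ratio of the old library at 4.98 (4.50 to 5.50). Young regulatory T cells had 80.2 (55.2 to 113) CPM, from 8 cells, and young conventional cells 3 UMIs, a log2 ratio of 4.70 (3.03 to 7.05) from fewer UMIs than the minimum. CD103 RNA was in 44.0% (34.8 to 53.5) of old regulatory T cells, 25.4% thinned, and in 1.69% of the old PT reference. The other listed genes beyond 2-fold in the old library were *Ikzf4* (3.21) and *Capg* (1.12). *Lrrc32*, which encodes the docking protein of latent TGF-β, stayed below the minimum with 10 young and 27 old UMIs in regulatory T cells, against 2 and 2 in the larger conventional groups.

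**Figure D2:**
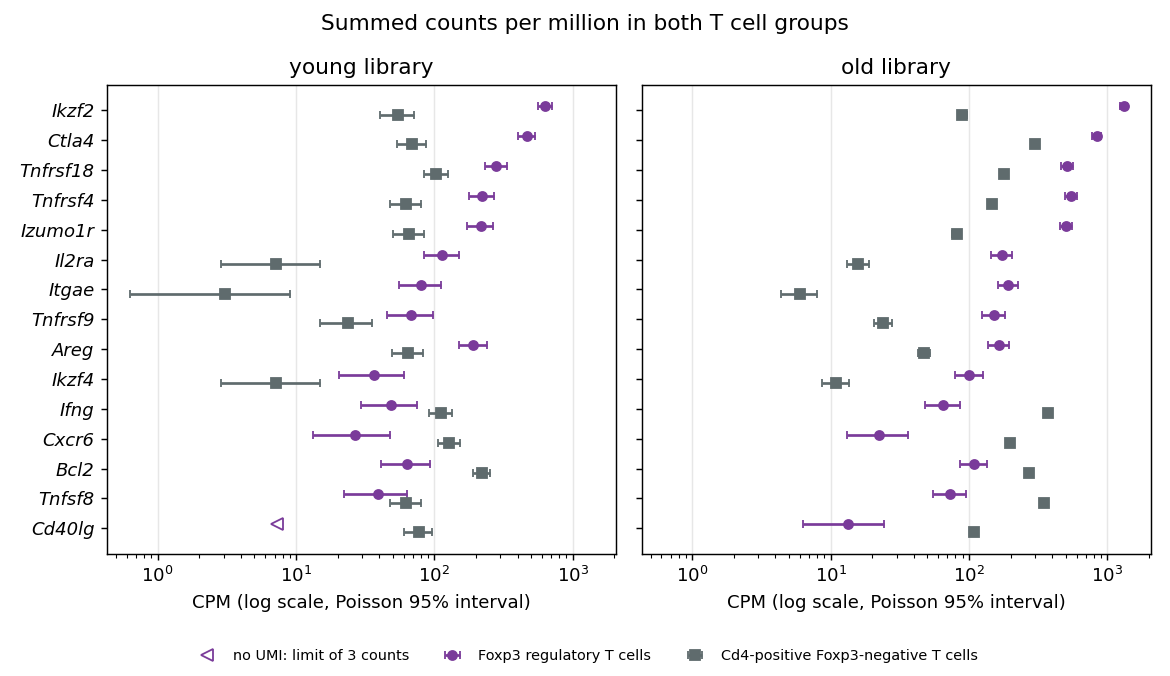
Summed level of 15 genes, in CPM on a log scale, in Foxp3 regulatory and CD4 conventional T cells of each library. Points are CPM, bars Poisson 95% intervals, and an open triangle marks a gene with no UMI at its limit of 3 counts; the genes from *Ikzf2* to *Ikzf4* lie higher and those from *Ifng* to *Cd40lg* lower in regulatory T cells of both libraries.

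Molecules through which regulatory T cells act were split between higher and lower. Of 20 listed, 5 of 8 tested were higher and 1 lower in the young library, with a median log2 ratio of 1.35; the higher ones were *Ctla4*, *Areg*, *Fgl2*, *Nt5e* and *Lag3*, and the lower one *Penk*. In the old library it was 5 higher and 4 lower of 17, with a median of 0.37. The shares of all tested genes were 2.87% higher and 2.97% lower in the young library and 3.43% and 7.29% in the old. The listed genes lower in the old library were the cytotoxic genes *Gzmb* and *Prf1* and the inhibitory receptors *Havcr2* and *Pdcd1*. *Pdcd1*, which encodes PD-1, was at 39.8 (26.9 to 56.8) CPM in old regulatory T cells, a log2 ratio of -1.18 (-1.76 to -0.65). *Lag3* was higher in young regulatory T cells (2.16, from 4 cells) and even in old ones (0.13). Without mixed cells 3 of 5 tested were higher in the young library, *Fgl2*, *Areg* and *Ctla4*, and *Penk* was lower. In the old library 5 were then higher and 5 lower of 16, with a median of 0.11. There *Itgb8* was called higher and *Il1rn* was not, and *Il10* was called lower.

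*Areg* (ENSMUSG00000029378, chr5:91139599-91148432) encodes amphiregulin, an epidermal growth factor receptor ligand with roles in tissue repair that regulatory T cells and innate lymphoid cells both make. It was at 192 (152 to 239) CPM in young and 165 (137 to 196) in old regulatory T cells, and at 64.7 (49.7 to 82.7) and 47.5 (42.7 to 52.6) in conventional cells. Log2 ratios were 1.57 (1.07 to 2.07) and 1.79 (1.49 to 2.09), so the gene was higher in both libraries over all cells. Among cells with Y-linked but no *Xist* UMIs the ratios were 0.88 and 0.97, within 2-fold, and among cells with *Xist* alone 3.67 and 2.66. The UMIs were spread differently: 7 of 41 young regulatory T cells held all 79, at most 29 in 1 cell, while 43 of 116 old ones held 124, at most 12 in 1 cell. As shares this is 17.1% (7.15 to 32.1) and 37.1% (28.3 to 46.5), or 12.2% and 14.9% thinned, against 1.63% and 0.76% of PT reference cells. At equal depth the shares of *Areg*-positive cells were thus close, but the level was not under every choice. Old over young the level was -0.22 over all cells, -0.97 thinned, -1.21 as a mean of cells, -1.88 with *Xist* alone and -1.47 without mixed cells. With at least 2 UMIs of *Foxp3* it was 0.38, so its direction is not settled.

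Innate lymphoid cells of type 2 (ILC2), chosen as cells without CD3 and with UMIs of 2 or more of *Gata3*, *Il2ra*, *Il17rb* and *Il1rl1*, give a scale for these levels. Young ILC2 had 924 (906 to 943) CPM of *Areg* and old ones 1558 (1508 to 1609), and log2 ratios of regulatory T cells over ILC2 were -2.27 (-2.61 to -1.95) and -3.24 (-3.51 to -2.98). CD8 T cells had 46.7 and 17.8 CPM. Of the 9 ILC2 markers, 7 had UMIs in young and 6 in old regulatory T cells, at summed levels of 588 and 433 CPM. Without mixed cells the sums were 1059 and 470 CPM. *Areg* was the most abundant of them in both libraries, and *Il5* and *Il13*, the defining ILC2 cytokines, were at 0 in both, as was *Kit* in the old. Regulatory T cells also express *Areg*, *Gata3* and *Il1rl1* of that list.

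*Il10* (ENSMUSG00000016529, chr1:131019845-131024974) encodes an anti-inflammatory cytokine. Young regulatory T cells had 94.7 (67.4 to 129) CPM, 39 UMIs in 9 cells, and young conventional cells 7.18 (2.89 to 14.8), which together fall short of the minimum count. Old regulatory T cells had 11.9 (5.46 to 22.7) CPM, 9 UMIs in 5 cells, and old conventional cells 23.9 (20.5 to 27.6). The young log2 ratio was 3.72 (2.54 to 5.13), and the old level was below that of conventional cells, so the libraries lie on opposite sides of 0. Without mixed cells young regulatory T cells had 163 and old ones 13.3 CPM. *Penk*, which encodes the opioid precursor proenkephalin, had no UMI in young regulatory T cells and 76 in 10 old ones, while the 70 UMIs of young conventional cells all came from 1 cell. Old regulatory T cells thus had at least 13.8-fold more *Penk* than young ones, at least 5.96-fold without mixed cells, and a log2 ratio of 0.96 (0.59 to 1.32) to old conventional cells. *Ebi3* (1.13) and the interleukin-1 inhibitors *Il1r2* (1.73) and *Il1rn* (2.27) were, with *Ctla4* and *Areg*, the listed genes higher in the old library, *Il1rn* from 6 cells. TGF-β1 (*Tgfb1*) was even between groups, at -0.02 and 0.37.

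Costimulatory genes added to the receptors above *Cd27*, at log2 ratios of 1.07 and 0.88, while *Cd28* stood at -0.50 and -0.72 and *Icos* at 0.28 and 0.31. Of the 13 genes of that list, 5 of 11 tested were higher in the young and 4 of 13 in the old library. Among all tested genes 2.87% and 3.43% were higher, and 2.97% and 7.29% lower. In each library 1 gene of the list was lower. That gene was *Cd40lg*, the ligand with which helper T cells activate B cells. Young regulatory T cells had none, at most 7.29 CPM, against 77.0 (60.5 to 96.5) in conventional cells, at least 10.6-fold more. Old regulatory T cells had 13.3 (6.36 to 24.4) CPM against 108 (101 to 116), a log2 ratio of -3.03 (-4.10 to -2.14).

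In the interleukin-2 pathway, most tested genes stayed within 2-fold. Of all tested genes, 2.87% were higher and 2.97% lower in the young library, and 3.43% and 7.29% in the old. Of 16 listed genes, 1 of 11 tested was higher and 2 lower in the young library, and 1 and 3 of 16 in the old. The list thus exceeded these shares, by few genes. *Il2ra* was the higher gene each time. The lower ones were *Bcl2* and *Il7r* (-1.29, and -0.65 without mixed cells) in the young, and *Bcl2*, *Socs3* (-1.04) and *Il2* in the old. The shared chains *Il2rb* (0.62 and 0.33) and *Il2rg* (-0.79 and 0.19) stayed within 2-fold. *Il2* itself had 0 UMIs in young and 3 in old regulatory T cells, against 7 and 79 in conventional cells, with a log2 ratio of -1.38 (-3.69 to 0.22) in the old, an interval that spans 0. *Bcl2*, a survival gene, was lower in both, at 63.1 against 219.6 and 109 against 270.2 CPM, with log2 ratios of -1.80 (-2.45 to -1.21) and -1.31 (-1.65 to -0.99).

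*Fas*, the death receptor that carries the *lpr* mutation in all these mice, had 2 UMIs in young and 29 in old regulatory T cells. In CPM this is 4.86 (0.588 to 17.5) and 38.5 (25.8 to 55.3), beside 21.6 (13.3 to 32.9) and 19.3 (16.3 to 22.7) in conventional cells, and 13.6 and 46.5 in regulatory T cells without mixed cells. The counts come from 3′ ends and do not test the mutation. Its ligand *Fasl* was at 25.2 CPM in old regulatory and 119 in old conventional cells, a log2 ratio of -2.24 (-2.98 to -1.59). Of the 8 genes of the FAS and BCL2 families, 0 of 3 tested were higher and 1 lower in the young library. In the old it was 0 and 2 of 8. All tested genes gave 2.87% and 2.97% in the young library and 3.43% and 7.29% in the old. *Fas* itself fell just short of 2-fold in the old library and passed it without mixed cells, at 1.18 (0.53 to 1.78).

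Genes of resting, recirculating lymphocytes gave a different picture in each library. Of 10 listed, 7 of 9 tested were lower and 0 higher in young regulatory T cells, with a median log2 ratio of -1.38. Without mixed cells 5 of 8 were lower, as *Ccr7* and *Il7r* came within 2-fold. Among old cells 0 were lower and 2 higher of 10, with a median of 0.56. Over all tested genes 2.97% were lower and 2.87% higher in the young library, and 7.29% and 3.43% in the old. Between the libraries, however, the listed genes had a median of -0.72 in conventional cells and 0.79 in regulatory T cells, or -1.09 and 0.35 without mixed cells. Without mixed cells the difference between libraries was thus the larger one in conventional cells.

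*Satb1* (ENSMUSG00000023927, chr17:51736187-51833290), a chromatin organizer of T cell development, passed 2-fold in opposite directions in the libraries. Young conventional cells had 299 (265 to 335) CPM and old ones 39.5 (35.2 to 44.2), while regulatory T cells had 58.3 (37.3 to 86.7) and 110.1 (87.7 to 137). The log2 ratios, young and old, were -2.36 (-3.02 to -1.76) and 1.48 (1.11 to 1.83), and without mixed cells -2.21 and 1.38. *Lef1*, a factor of naive T cells, had ratios of -1.90 (-2.59 to -1.27) and 0.95 (0.57 to 1.31). *Tcf7*, its relative, stood at -2.46 and -0.80, and *Klf2*, which controls exit from tissue, at -1.47 and -0.64, both past 2-fold in the young library alone. The lymph node receptor *Ccr7* stood at -1.09 and 0.61, and without mixed cells at -0.44 and 0.39, within 2-fold in both.

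*Ccr7* was counted in some regulatory T cells of each library. It was in 11 of 41 young and 27 of 116 old regulatory T cells, 9.76% and 6.14% thinned, against 0.449% and 0.45% of PT reference cells unthinned. Cells with *Ccr7* were deeper than those without, at medians of 8913 against 3657 UMIs in the young and 6428 against 4634 in the old library. Deeper cells show more genes of any kind, so shares of cells with a gene are a description only.

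Among 28 transcription factors, 2 of 16 tested were higher and 5 lower in the young library. In the old it was 5 and 0 of 28. For all tested genes the shares were 2.87% and 2.97% in the young library, and 3.43% and 7.29% in the old. Besides *Ikzf2*, the higher factors were *Ikzf3* (1.29) in the young and *Ikzf4* (3.21), *Satb1*, *Foxo1* (1.25) and *Id3* (1.34) in the old. Over all cells the factors of effector lineages below stayed within 2-fold. *Tbx21*, the type 1 factor, had 1 UMI in young and 15 in old regulatory T cells, with a log2 ratio of -0.56 (-1.42 to 0.19) in the old, and *Gata3*, the type 2 factor, had ratios of 0.86 (0.39 to 1.33) and -0.31 (-0.62 to -0.02). Without mixed cells *Gata3* passed 2-fold in the young library (1.31), with -0.47 in the old, and *Rora*, a nuclear receptor, passed it in the old (1.05), where *Runx3* was lower (-1.10).

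Most genes of tissue and effector regulatory T cells stayed within 2-fold of conventional cells: of 21 listed, 3 of 14 tested were higher in the young and 3 of 20 in the old library, with 1 lower in each, where 2.87% and 3.43% of all tested genes were higher. *Areg* and *Tnfrsf9* were higher in both, *Itgae* in the old and *Klrg1* in the young. Without mixed cells *Tnfrsf9* fell below the minimum count in the young library, with a ratio of 2.30. *Klrg1* (ENSMUSG00000030114, chr6:122270596-122282882), a receptor for cadherins found on differentiated tissue regulatory T cells, was at 121 (90.1 to 160.1) CPM in young regulatory and 7.18 (2.89 to 14.8) in young conventional cells. The old values were 11.9 (5.46 to 22.7) and 9.18 (7.16 to 11.6). Log2 ratios were 4.08 (2.93 to 5.47) and 0.38 (-0.81 to 1.39), so the gene set regulatory T cells apart in the young library alone.

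By cells, *Klrg1* was in 12 of 41 young and 4 of 116 old regulatory T cells, 14.6% and 0.877% thinned, against 0.464% and 0.113% of the PT reference. Old over young, its log2 ratio in regulatory T cells was -3.35 (-4.56 to -2.31), and -4.32 (-5.54 to -3.27) without mixed cells. Of the 12 young *Klrg1*-positive cells, 9 had *Gata3*, 3 *Il10*, 0 *Ccr7* and 0 *Itgae*. The 29 young cells without *Klrg1*, with a median depth of 8429 against 3081 UMIs, had *Gata3* in 14, *Il10* in 6, *Ccr7* in 11 and *Itgae* in 8. No young *Klrg1*-positive cell thus had *Ccr7* or *Itgae*, but these cells were few and shallower, and a split of cells was not tested. *Ccr7* was in 5 of 8 young *Itgae*-positive cells. Of the 4 old *Klrg1*-positive cells, 2 had *Ccr7*, 2 *Itgae* and 0 *Gata3*. In ILC2, *Klrg1* was at 75.7 CPM in the young and 142 in the old library.

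Old *Itgae*-positive regulatory T cells numbered 51, and 50 of them had *Ikzf2*. *Itgae* was in 22 of 43 *Areg*-positive cells and 29 of 73 others, at medians of 6074 and 4679 UMIs, and in 21 of 43 *Tnfrsf9*-positive cells. Among young cells 0 of 7 *Areg*-positive and 8 of 34 other cells had *Itgae*. Some old cells thus had both, and whether the genes share cells beyond chance was not tested. CD8 T cells, which also use CD103, had 17.8 young and 68.4 old CPM of *Itgae*, and log2 ratios of regulatory over CD8 T cells were 2.17 (1.37 to 2.99) and 1.48 (1.21 to 1.75).

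Of 23 homing receptors and adhesion genes listed, 1 was higher and 4 lower of 16 tested in the young library, and 4 higher and 1 lower of 20 in the old. The other tested ones, 11 and 15, were within 2-fold. Of all tested genes 2.87% were higher and 2.97% lower in the young library, and 3.43% and 7.29% in the old. The lower ones in the young and the higher ones in the old library thus exceeded these shares. Without mixed cells it was 0 and 2 of 14, and 3 and 2 of 19. *Cxcr6*, a receptor of tissue T cells, was lower in both, at 26.7 (13.3 to 47.8) against 128 (107 to 153) and 22.6 (13.1 to 36.1) against 197 (187 to 207) CPM. Its log2 ratios were -2.26 (-3.30 to -1.37) and -3.12 (-3.91 to -2.44). *Cxcr3*, the receptor for interferon-γ-induced chemokines, was within 2-fold at 0.67 and 0.50, and found in 15 of 41 young and 67 of 116 old regulatory T cells.

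Integrin α4β7, which binds MAdCAM-1 and which the series title names for innate lymphoid cells, is encoded by *Itga4* and *Itgb7*. *Itgb7*, whose product also pairs with CD103, was at 209 (167 to 258) CPM in young and 415 (371 to 464) in old regulatory T cells, and at 179 and 201 in conventional cells. Its log2 ratios were 0.23 (-0.16 to 0.61) and 1.05 (0.87 to 1.22). *Itga4* was at 121 and 304 CPM in regulatory T cells, with ratios of -0.28 (-0.78 to 0.19) and -0.56 (-0.76 to -0.36). In the old library the β7 chain thus passed 2-fold narrowly over all cells, and fell just short of it without mixed cells, while the α4 chain stayed within 2-fold. Besides *Itgae* and *Cxcr6*, the other listed genes past 2-fold in the old library were *Cxcr5* (1.25 over all cells, 0.87 without mixed cells, -0.12 when *Cd4* was required and -0.027 thinned, so its direction is not settled) and *Ccr9*, whose 33 UMIs in regulatory T cells came from 1 cell.

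Helper cytokines were lower in regulatory T cells. Of 16 listed, 2 of 3 tested were lower in the young and 8 of 9 in the old library, and none was higher in either. The median log2 ratio was -1.20 in the young and -1.93 in the old library. Of all tested genes, 2.97% were lower and 2.87% higher in the young library, and 7.29% and 3.43% in the old. *Ifng*, the type 1 cytokine interferon-γ, was at 48.6 (29.7 to 75.0) against 112 (91.9 to 135) CPM in the young and 65.0 (48.1 to 86.0) against 373 (359 to 387) in the old library. Its level differed between the libraries mainly in conventional cells, and its log2 ratios were -1.20 (-1.97 to -0.51) and -2.52 (-2.96 to -2.11). *Il21*, with which T cells help B cells, had 0 UMIs in old regulatory T cells and 44.3 (39.7 to 49.3) CPM in old conventional ones, at least 11.1-fold more. *Tnf* (-1.93), *Tnfsf8* (-2.25) and *Tnfsf11* (-1.18) were lower in the old library too. *Il17a* had no UMI in regulatory T cells of either library, and its 112 UMIs in old conventional cells came from 5 cells.

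Cytotoxic and natural killer genes followed the same direction. Of 10 listed, 8 of 9 tested were lower and 0 higher in old regulatory T cells. In young ones 2 of 2 were lower (*Nkg7* and *Ccl5*). The shares of all tested genes that were lower were 7.29% in the old and 2.97% in the young library. Without mixed cells only *Nkg7* stayed lower in the young library, with *Ccl5* at -0.41. Among cells with *Xist* alone the young *Ccl5* ratio was 3.996, in the opposite direction. The summed level was 221 CPM in young and 1482 in old regulatory T cells, against 851 and 5219 in conventional cells. *Ccl5*, a chemokine of memory T cells, led it in each group, at 143 (109 to 185) and 1005 (934 to 1079) CPM in regulatory T cells. Without mixed cells the sums were 482 and 1738 CPM in regulatory T cells. Both groups thus had more of these genes in the old library, regulatory T cells at the lower level. *Klrb1c* and *Ncr1*, which define natural killer cells, were at 0 in regulatory T cells of both libraries, and *Gzma*, *Gzmk*, *Klrk1* and *Eomes* in young ones.

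Early-response and heat-shock genes, which tissue dissociation can induce, did not set regulatory T cells apart in the young library, where 0 of 10 were higher and 0 lower. In the old library *Hspa1a* and *Hspa1b* were lower and the other 8 were within 2-fold. Among all tested genes 2.97% were lower in the young library and 7.29% in the old. *Hspa1a* was at 6.64 (2.15 to 15.5) CPM in old regulatory and 151 (143 to 160.1) in old conventional cells, a log2 ratio of -4.51 (-6.14 to -3.28), and *Hspa1b* had -4.28 (-5.73 to -3.15). In the young library *Hspa1a* stood at 114 (83.9 to 152) and 87.2 (69.7 to 108) CPM, with 24 of 47 regulatory UMIs in 1 cell. The PT reference had 95.6 young and 18.0 old CPM, and the part of handling in this difference was not tested.

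By rank over 3494 genes, the highest log2 ratios of old regulatory over old conventional cells, after *Itgae* and *Ikzf2*, were those of *Neb* (3.70), *Il2ra*, *Ikzf4*, *Lamc1* (2.97), *Swap70* (2.79), *Epcam* (2.73), *Lyz2* (2.72) and *Ephx1* (2.70). *Lyz2* falls to 0.18 without mixed cells, where *Neb* is at 3.43, *Lamc1* at 3.30, *Swap70* at 3.40, *Epcam* at 2.73 and *Ephx1* at 2.57. In the young library the ratios were 2.13 for *Neb*, from 24 and 13 UMIs, 1.31 for *Swap70*, 2.39 for *Lamc1*, 1.95 for *Ephx1* and 4.70 for *Epcam*, from 22 and 2 UMIs. *Neb*, known for the giant muscle protein nebulin, was in 13 of 41 young and 40 of 116 old regulatory T cells, 2.44% and 10.5% thinned, and in 0.135% and 0.141% of the PT reference. *Epcam*, an epithelial adhesion gene, was in 42 of 116 old regulatory T cells, but also at 116 CPM in old double-negative T cells against 135 in regulatory ones.

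At the other end stood *Ifitm1* (-7.25), *Hs3st3b1* (1 against 162 UMIs), *Xcl1* (-3.90), *Cxcr6*, *Sytl3* (-2.89), *Klrd1* (-2.74), *Themis* (-2.53), *Ifng*, *Hid1* (-2.48) and *Ctla2a* (-2.46). *Ifitm1*, an interferon-induced membrane protein gene, had 1 UMI in old regulatory and 1541 in old conventional cells, where 63 cells held them, and its interval is wide, -7.25 (-12.56 to -4.77). In the young library *Ifitm1* had 27 UMIs in 1 regulatory T cell, a mixed one. *Xcl1*, a chemokine that attracts cross-presenting dendritic cells, was at 4.86 against 58.5 CPM in the young and 5.31 against 79.4 in the old library. *Themis*, a signalling gene of the T cell receptor, stood at 14.6 against 35.9 and 10.6 against 61.1 CPM.

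Old over young within regulatory T cells, 465 of 3687 tested genes were higher and 479 lower, which is 12.6% and 13%. Without mixed cells it was 122 higher and 29 lower of 2405, or 5.07% and 1.21%. Fewer genes were thus past 2-fold, but the same step took away most young UMIs, and the part of foreign RNA was not separated from the loss of counts. Genes whose CPM in the PT reference did not exceed that in regulatory T cells had a median log2 ratio of 0.56 with and 0.06 without mixed cells. Ratios over all cells are therefore to be read against a shift of that size, and those without mixed cells against almost none.

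Fewer core genes were past 2-fold without mixed cells. Over all cells 11 of 16 tested core genes were higher in the old library, with a median of 1.12, but without mixed cells 1 of 16, with a median of 0.27 against 0.03 for all genes. *Ikzf2* had log2 ratios of 1.06 (0.86 to 1.26) over all cells and 0.09 (-0.13 to 0.32) without mixed ones, *Ctla4* 0.85 and -0.01 (-0.27 to 0.27), *Tnfrsf4* 1.31 and 0.50 (0.12 to 0.90), and *Il2ra* 0.61 and -0.62 (-1.14 to -0.08). In cells not called mixed, which still carried RNA of PT markers, these identity genes thus stayed within 2-fold between libraries. The one core gene still past 2-fold was *Gbp4*, which interferon induces.

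Other lists also gave different calls without mixed cells, with fewer genes higher and in some more genes lower. For all tested genes the shares were 12.6% higher and 13% lower over all cells, and 5.07% and 1.21% without mixed cells. Over all cells 2 higher and 1 lower of 9 suppressor genes, 8 and 0 of 19 transcription factors and 6 and 1 of 16 tissue and effector genes were past 2-fold. Without mixed cells, 1 of 7 tested suppressor genes was higher (*Penk*) and 2 lower (*Fgl2*, -1.37, and *Areg*, -1.47). Of the transcription factors 2 of 18 were higher (*Nfil3*, 1.23, and *Bhlhe40*, 1.31) and 2 lower (*Ikzf3*, -1.21, and *Gata3*, -1.29). The tissue and effector list gave 1 higher and 3 lower of 16 (*Klrg1*, *Gata3* and *Areg*). *Gata3*, *Klrg1* and *Areg* are also genes of ILC2. Without mixed cells the ILC2 markers summed to 1059 CPM in young and 470 in old regulatory T cells. ILC2 were 13.2% of young and 3.28% of old kept cells. In conventional cells without mixed ones, 3 of 4 tested ILC2 markers were lower in the old library (*Il1rl1*, *Areg* and *Cd81*). In the PT reference 3 of 7 were (*Il1rl1*, *Gata3* and *Hs3st1*). The part of ILC2 RNA in these differences was not tested.

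Costimulatory genes gave 0 higher and 0 lower of 9 without mixed cells, against 3 higher of 9 with them. The interleukin-2 pathway gave 1 of 12, *Stat5b* at 1.40, against 6 of 12. Homing and adhesion genes gave 1 higher, *Itgb2* at 1.08, and 1 lower, *Ccr7* at -1.90 (-0.64 over all cells), of 15. Of all tested genes 12.6% were higher and 13% lower over all cells, and 5.07% and 1.21% without mixed cells. The counts of higher genes given over all cells exceeded that share, and those without mixed cells rest on at most 1 gene each way. *Ccr7* was also lower in old than in young conventional cells, at -2.72 without mixed cells and -2.34 over all cells. Helper cytokines gave 0 higher and 0 lower of 2 over all cells, the FAS and BCL2 families 0 and 0 of 3, and stress genes 0 and 2 of 10 (*Hspa1a* and *Hspa1b*). Without mixed cells these were 0 and 0 of 1, 0 and 0 of 3, and 0 and 1 of 8 (*Nr4a1*, -1.03).

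**Figure D3:**
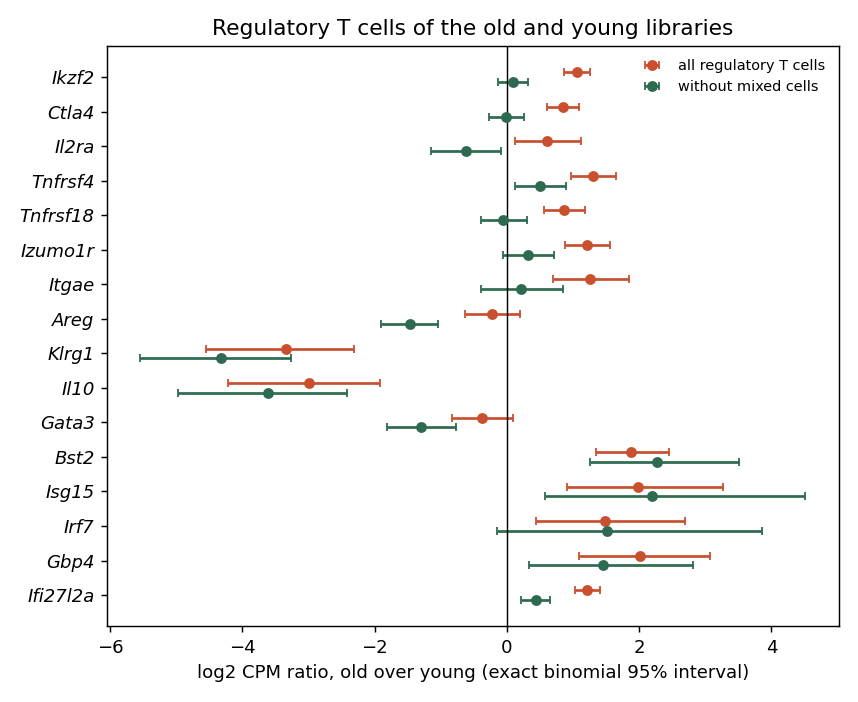
Log2 ratio of old over young CPM in Foxp3 regulatory T cells for 16 genes, over all cells and without mixed cells, with exact binomial 95% intervals. Without mixed cells the identity genes from *Ikzf2* to *Itgae* lie within 2-fold, *Klrg1* and *Il10* lie below it and *Bst2*, *Isg15*, *Irf7* and *Gbp4* above it.

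Interferon-stimulated genes were higher in the old library over all cells and, for the most part, without mixed cells. They are switched on by type I or type II interferon, and their activity is a known feature of lupus. Of 14 listed, 7 of 7 tested were higher in old regulatory T cells and 0 lower, with a median log2 ratio of 1.88 against 0.23 for all tested genes. Without mixed cells 4 of 6 were higher and 0 lower, with a median of 1.61 against 0.03. Among all tested genes 12.6% were higher over all cells and 5.07% without mixed ones. In conventional cells 4 of 12 were higher in the old library, with a median of 0.75, where 8.84% of all tested genes were higher and 7.61% lower. Without mixed cells it was 5 of 12, against 9.28% of all genes higher and 2.58% lower.

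*Bst2* (ENSMUSG00000046718, chr8:71534255-71537456), which encodes tetherin, was at 82.6 (57.2 to 115) CPM in young and 304 (266 to 346) in old regulatory T cells, with an old over young log2 ratio of 1.88 (1.36 to 2.44), 2.27 (1.26 to 3.51) without mixed cells, and 0.10 in conventional cells. *Isg15* (ENSMUSG00000035692, chr4:156199424-156200818), a ubiquitin-like modifier, was at 19.4 (8.39 to 38.3) and 77.0 (58.4 to 99.5) CPM, with ratios of 1.99 (0.91 to 3.26) and 2.19 (0.57 to 4.51) without mixed cells, and 1.59 in conventional cells. *Irf7*, a driver of type I interferon genes, had 1.48 and 1.51, *Gbp4*, a guanylate-binding protein gene, 2.01 and 1.45, *Gbp7* 1.46 and 0.93, and *Ifi27l2a* 1.21 and 0.43. All of these ratios were above 0 under both choices, those of *Gbp7* and *Ifi27l2a* within 2-fold without mixed cells. Other choices of cells did not all keep this: among cells with *Xist* alone *Irf7* was at -0.47 and *Bst2* at 0.64, and with cells with 2 genes of another class left out, which leaves 4 young cells, *Gbp7* was at -1.44 and *Bst2* at 0.93. The listed genes with too few UMIs included *Mx1* and *Oasl2*, with 3 and 1 UMIs in young and 0 and 1 in old regulatory T cells.

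The kidney cells themselves differed in the same direction. In the PT reference 12 of 13 tested listed genes were higher in the old library and 0 lower. Their median log2 ratio was 3.74, against 0.001 for all tested genes. That median is above the 1.88 of regulatory T cells, which covers fewer genes. In the PT reference *Bst2* was at 9.35 CPM in the young and 124 in the old library, and *Isg15* at 1.63 and 24.0, each below regulatory T cells of its library. For *Gbp2* the old PT reference, at 143 CPM, exceeded old regulatory T cells, at 42.5. Its level in T cells thus cannot be told apart from RNA of tubule cells. Within the old library, 3 of 12 listed genes were higher in regulatory than conventional cells (among them *Gbp7* at 1.23 and *Ifi27l2a* at 1.20) and 1 lower (*Ifit3*, -1.42). In the young library 1 of 5 was higher (*Gbp7*, 1.29). All tested genes gave 3.43% higher and 7.29% lower in the old library, and 2.87% higher in the young. Without mixed cells the young count was 0 higher and 1 lower of 3 (*Bst2*, -1.21), with *Gbp7* below the minimum count, and the old one 4 and 1 of 12.

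Their promoters were searched for GAAA, any 2 bases and GAAA again, the core of the interferon-stimulated response element, on both strands of RefSeq promoter sequences (GRCm38.p6, 250 bases before to 50 after the gene start). The table held 8 of the 14 genes, and 6 of them matched, 75%, against 1079 of all 27025 genes, 3.99%. A second search, for TTC, any 3 bases and GAA, the core of the γ-activated sequence, matched 2 of 8 (*Bst2* and *Gbp7*), 25%, against 9.55% of all genes. A match describes letters, not binding. Shown are 50-base windows of genes tested above, with capitals on 1 match of the first motif each, on the minus strand at chr4:156200867-156200916 (*Isg15*), chr8:71537573-71537622 (*Bst2*), chr3:142530263-142530312 (*Gbp7*).
Isg15: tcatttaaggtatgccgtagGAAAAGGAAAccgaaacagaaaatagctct
Bst2: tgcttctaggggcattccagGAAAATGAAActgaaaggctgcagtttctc
Gbp7: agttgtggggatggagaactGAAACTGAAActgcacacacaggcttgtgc

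By rank over 1991 genes, the highest old over young ratios in regulatory T cells included those of *Lyz2* (4.50), *Nrn1* (4.17), *Serpina3g* (2.96), *Ttn* (2.96), *Ccl5* (2.81), *Plac8* (2.78), *Rgs16* (2.69), *Cd274* (2.50) and *Il18r1* (2.47). Without mixed cells they were 0.55 for *Lyz2*, 2.89 for *Nrn1*, 1.87 for *Serpina3g*, 3.13 for *Ttn*, 1.59 for *Ccl5*, -0.45 for *Plac8*, 1.41 for *Rgs16*, 1.78 for *Cd274* and 1.38 for *Il18r1*. *Lyz2* and *Plac8* thus fall away with the mixed cells, and the others named stay past 2-fold.

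*Nrn1*, which encodes neuritin, a secreted protein made by activated and regulatory T cells, had 3 UMIs in young and 99 in 20 old regulatory T cells, and its interval is wide, 4.17 (2.58 to 6.47). In conventional cells its old over young ratio was 1.76 (1.08 to 2.53). *Cd274*, the gene of the checkpoint ligand PD-L1 and induced by interferon, was at 14.6 (5.35 to 31.7) CPM in young and 82.3 (63.1 to 105) in old regulatory T cells, with a ratio of 2.50, and of 1.44 (0.74 to 2.23) in conventional cells. *Il18r1*, the receptor of interleukin-18, was at 21.9 and 121 CPM, and in conventional cells its ratio was 1.06 (0.65 to 1.51). *Ttn*, known for the muscle protein titin, was in 42 of 116 old and 3 of 41 young regulatory T cells, against 2.51% and 1.29% of PT reference cells, and had a conventional-cell ratio of 2.58. These differences between libraries were thus shared, in direction, with conventional cells.

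The lowest ratios were those of *Klrg1*, *Ccl3* (-2.39), *Alox5ap* (-1.50), *Csf1* (-1.48), *Cxcl2* (-1.09), *Cst3* (-0.99), *Klf3* (-0.74), *Lsm4* (-0.71), *Pon2* (-0.68) and *Impdh2* (-0.67). Of these, *Ccl3* came from mixed cells, with 146 of 155 young UMIs on 1 barcode and a ratio of 1.29 without them, and *Csf1* (0.38) and *Cst3* (0.34) also changed side. *Alox5ap*, a leukotriene gene of myeloid cells, was at 117 CPM in young regulatory T cells and at 0 without mixed cells. Of this end of the ranking, *Klrg1* (-4.32) and the lactonase gene *Pon2* (-1.07) were past 2-fold in the same direction without mixed cells.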

How the data were processed

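Enriched kidney cells of pooled kidneys were measured as 10x 3′ libraries, 1 per age, and both were used. The deposited matrices hold counts, UMIs per gene and barcode, which the authors made with Cell Ranger 3 (3.1.0 in the file header) and the mm10 build, for 31053 genes. Cells had 200 genes or more and no more than 20% mitochondrial UMIs. UMIs were summed over each group of cells and divided by the group's total (CPM), and no pseudocount was added. Genes with at least 50 UMIs over both groups were tested against 2-fold, and no replicate existed for a test. Intervals are exact Poisson (CPM), Clopper-Pearson (shares) and exact binomial (log2 ratios). Depth limits the young library most, where 41 cells hold 411720 UMIs. Genes were named as members of lists fixed at the start, and by rank, the 10 highest and 10 lowest log2 ratios of regulatory over conventional cells in the old library (at least 100 UMIs) and of old over young (at least 50), with a UMI in at least 5% of cells; rule genes, *Cd4*, sex-linked, receptor-segment, mitochondrial and hemoglobin genes, gene models and genes higher in the PT reference were not ranked. The members and the lists were chosen with earlier results of these data known. Genes outside them were named after their values were seen. Some members of the lists and of the ranking are not reported here. Scrublet in Scanpy 1.11.5 called doublets per library with seed 7, and thinning drew 1000 UMIs per cell with that seed. Tubule genes, 2884 in number, were those over 4-fold higher in the PT reference than in CD8 T cells of both libraries. On simulated data, the ranking code was tested. Python 3.11.15, NumPy 2.4.6, SciPy 1.17.1, pandas 2.3.3 and Matplotlib 3.10.9 were used. Alternatives changed doublets, the mitochondrial limit, genes per cell, *Foxp3* and *Cd4* thresholds, cells of mixed content, the total, the mean, the minimum count, the fold, the sex of origin and the depth.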

Additional observations from a re-analysis of the deposited data

Results flagged for a closer look

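For 3 of the genes named by list or rank, the log2 ratio of regulatory over conventional T cells passed 2-fold in opposite directions in the libraries. *Satb1* was at -2.36 in the young and 1.48 in the old library, *Lyz2* at -1.30 and 2.72, and *Ccl3* at 2.35 and -1.25. The difference between the libraries was not tested for any of them, since each ratio rests on 1 library. Without mixed cells *Satb1* stood at -2.21 and 1.38. For *Lyz2* 692 of 703 old UMIs, and for *Ccl3* 146 of 155 young UMIs, lay in 1 regulatory T cell.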

How the results depend on the processing

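No paired analysis was possible because there is 1 library per age and the labels share no more than the replicate number 1. Leaving out doublets, 10% mitochondrial UMIs, 500 genes per cell and leaving abundant genes out of the total kept the counts of genes past 2-fold within 1.5 times the main ones of 1021 (old, regulatory over conventional), 238 (young) and 944 (old over young), and those of them that change the cells kept the shares of 25% (young) and 9.31% (old) within their intervals. The share was higher in the young library under every alternative that changes the cells. Each list below gives the old, young and old over young counts in that order, or names the ones it gives. No minimum count gave 2247, 1945 and 3682, at least 100 UMIs 582, 102 and 500, 1.5-fold 2468, 867 and 1870 and 3-fold 336, 72 and 357, by construction of the limit. Thinning to 1000 UMIs gave 438, 32 and 47, with *Cxcl2* at 0.11 (old over young) and *Cxcr5* at -0.027 (old library). These ratios cover the 114 old and 41 young regulatory T cells that were thinned. For the shares, 42 old and 12 young regulatory T cells were counted under thinning, with shares of 8.92% and 20.3%.

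At least 2 UMIs of *Foxp3* left 72 old and 21 young cells and shares of 5.99% and 14.6%, with *Lyz2* at -3.27 in the old library and -0.93 old over young and *Plac8* at -0.28. A *Cd4* UMI left 69 and 19 cells, shares of 5.75% and 13.4%, 412 young and 588 old over young genes, and *Cxcr5* at -0.12. Leaving out cells with UMIs of 2 genes of another class gave 517, 47 and 219 genes, 50 and 4 cells and an old share of 11.7%; with 4 young cells left, *Ikzf2* (-0.012), *Gbp7* (-1.44), *Il18r1* (-1.26) and *Itgb2* (-0.36) reversed old over young, *Ifng* (2.47) and *Il7r* (1.14) in the young and *Cxcr5* (-0.34) and *Lyz2* (-3.10) in the old library. The mean of each cell's CPM gave 458 young and 598 old over young genes. With Y-linked but no *Xist* UMIs, cells numbered 45 old and 20 young and gave 629 old over young genes. Those with *Xist* alone, 41 and 13, gave a young share of 41.9%, 63 young and 124 old over young genes, *Ccl5* at 3.996 in the young library, and old over young *Ccl3* at 1.27, *Irf7* at -0.47, *Lyz2* at -2.79 and *Plac8* at -0.95. Without mixed cells, an alternative chosen after seeing the data, 151 genes were past 2-fold old over young, with *Ccl3* at 1.29 and *Csf1* at 0.38.

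Of 1678 log2 ratios of named genes under these alternatives, 1273 stayed within the counting interval, 384 left it and 21 passed 0 from a value past 2-fold. Some ratios could not be formed where too few UMIs were left. Beyond the smaller number of cells or genes that an alternative leaves, the cause was not tested. Depth limits what 41 young cells can show, and mouse, pool and library cannot be told apart from age.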
